A study of Mus musculus with 2 samples.

Results

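The genes described here are the chemokines that draw neutrophils into tissue, the receptor that reads them, and the chemokine Cxcl12 with both of its receptors. They were measured in single cells of the mouse temporomandibular joint (TMJ), the jaw joint. The 8 genes, Cxcl1, Cxcl2, Cxcl3, Cxcl5, Cxcr2, Cxcl12, Cxcr4 and Ackr3, were chosen by symbol from the 32285 genes of the count tables, and each symbol matched 1 row. The data were 2 libraries of single-cell RNA sequencing (scRNA-Seq), which tags each captured RNA molecule with a barcode of its cell and a random molecular identifier (UMI). Both came from wild-type (WT) C57BL/6 mice labelled as 8 to 10 weeks old. The mice were female by the methods and were injected into both joints with 10 µL of PBS or of complete Freund's adjuvant (CFA), a suspension of killed mycobacteria in oil that causes lasting inflammation, at 5 mg/mL. Joints were taken 3 weeks later, and tissue of condyle, disc and temporal bone with the adjoining muscle and ligament went into 1 digest per group (n = 3 in the methods). Cells carrying CD45, the surface marker of leukocytes, were then depleted with beads, so the share of neutrophils, macrophages and B cells in these libraries is not that of the joint. With 1 library per condition there is no replicate, no p-value was computed, and every interval below covers counting error only.

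Chemokines are small secreted proteins that steer leukocytes. Cxcl1, Cxcl2, Cxcl3 and Cxcl5 carry the ELR motif (glutamate, leucine, arginine) and bind Cxcr2, a receptor of neutrophils, and their genes are switched on by NF-kB within hours of inflammatory signals. Cxcl12 is made without stimulation by stromal, endothelial and bone-lineage cells. It holds neutrophils, B cell precursors and blood progenitors in the bone marrow through Cxcr4, while Ackr3, its atypical receptor, takes Cxcl12 up and removes it. Neutrophils leave the marrow when signals through Cxcr2 outweigh those through Cxcr4.

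All 4 ELR ligand genes lie on the plus strand of 1 stretch of chromosome 5 in the build of the files, GRCm38 (mm10), spanning 146579 bases and 7 protein-coding genes in the GENCODE annotation. Cxcl5 lies at chr5:90759360-90761624, Cxcl3 at chr5:90786103-90789600, Cxcl1 at chr5:90891241-90893115 and Cxcl2 at chr5:90903871-90905938. Cxcl12 lies at chr6:117168535-117181367 on the plus strand. The receptor genes are on chromosome 1, Cxcr2 at chr1:74153989-74161246 and Ackr3 at chr1:90203980-90216751 on the plus strand and Cxcr4 at chr1:128588199-128592293 on the minus strand. None of the 8 overlaps another annotated gene. Cxcl2 and Cxcl3 share an identical run of 110 bases in their annotated transcripts, Cxcl1 shares at most 23 bases with either of them, and Cxcl5 at most 12 with any of the other 3. Reads that fall wholly inside a shared run could be assigned to neither gene, so the UMIs of Cxcl2 and Cxcl3 may be undercounted.

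The promoters of 3 of the ELR ligands are shown because they carry the same NF-kB motif. RefSeq promoter sequences (GRCm38.p6, 250 bases before to 50 bases after the start) were found for 7 of the 8 genes, all but Cxcl5. The motif GGGNNTTTCC was searched on both strands. It was present in 1.63% of 32851 promoters and in those of Cxcl1, Cxcl2 and Cxcl3, and these 3 held the exact form GGGAATTTCC. That form was read from these 3 promoters and then counted in all, where 0.0883% held it, so this share is a description only. The motif GGGNNTTTCC was not found in the promoter windows of Cxcl12, Cxcr2, Cxcr4 and Ackr3. In the sequences below, on the plus strand and 5′ to 3′, capitals mark the motif, which begins 71 bases before the RefSeq start of Cxcl1 (chr5:90891159-90891198), 97 before that of Cxcl2 (chr5:90903787-90903826) and 73 before that of Cxcl3 (chr5:90786013-90786052). These starts differ from the GENCODE starts of the genes given above.
Cxcl1: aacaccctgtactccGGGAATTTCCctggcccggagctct
Cxcl2: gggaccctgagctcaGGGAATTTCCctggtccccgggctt
Cxcl3: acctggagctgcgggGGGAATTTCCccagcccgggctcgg

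Cells with at least 500 genes, at most 10% mitochondrial and at most 1% hemoglobin UMIs were kept, 2667 of PBS and 4014 of CFA. Their median depth was 7022 and 6509.5 UMIs. The hemoglobin limit removed 3178 PBS and 339 CFA barcodes, so the libraries differ in how much red cell RNA they carried. They shared 2 barcodes. Cells were clustered without the 8 genes and the pathway genes named further on, and clusters were named from markers, each name resting on at least 3 detected markers. The classes counted 691 PBS and 945 CFA endothelial-like cells, 484 and 374 fibroblast-like cells, 71 and 348 neutrophil-like cells and 209 and 149 B lineage-like cells. A cluster led by Prg4, the gene by which the paper names lining fibroblasts, had 30 PBS and 6 CFA cells and stayed unnamed. The fibroblast-like values below leave that cluster out. Macrophage-like cells numbered 26 and 330 and also carried monocyte markers. Osteoclast-like macrophages numbered 0 and 258, so that cluster cannot be told apart from its library. A level below is the sum of a gene's UMIs over the cells of a class for every 1000000 UMIs of those cells (CPM), with its exact 95% Poisson interval in parentheses, and a share is the percent of cells with at least 1 UMI of the gene, with its exact Clopper-Pearson interval. Levels are compared between classes and libraries of 1 gene, not between genes.

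Cxcl2, a neutrophil attractant made by activated myeloid cells, had 1600 UMIs in all kept PBS cells and 59619 in all kept CFA cells, a level of 58.8 (56.0 to 61.8) against 1342 (1331 to 1353) CPM. Its level in neutrophil-like cells was 623 (568 to 682) in PBS and 3802 (3733 to 3873) in CFA, a ratio of 6.10 (5.56 to 6.71). In CFA, macrophage-like cells had 3599 (3545 to 3654) and osteoclast-like macrophages 2882 (2847 to 2917) CPM. The 3 myeloid classes thus stood far above every other named CFA class, and their intervals did not overlap one another. The 26 PBS macrophage-like cells had 1295 (1178 to 1421) CPM, from too few cells for a comparison. By cells, 99.2% (97.2 to 99.9%) of osteoclast-like macrophages, 87.9% (83.9 to 91.2%) of macrophage-like and 78.2% (73.4 to 82.4%) of neutrophil-like cells of CFA held a Cxcl2 UMI, against 31.0% (20.5 to 43.1%) of PBS neutrophil-like cells. Median depths were 31830, 12568, 4467 and 7849 UMIs in the same order. The order of the 3 CFA shares is that of depth and the reverse of that of level.

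Several classes outside the myeloid ones also had more Cxcl2 in CFA, with shares near that of a class that should lack it. Schwann- or glia-like cells, which should lack Cxcl2, held a Cxcl2 UMI in 1.62% (0.529 to 3.75%) of PBS and 18.8% (15.01 to 23.2%) of CFA cells, at median depths of 3832 and 3433 UMIs. The CFA shares were alike in endothelial-like (16.8%, median depth 4720.0), mural-like (20.98%, 9110), tenocyte-like (18.9%, 9990), osteoblast- or osteocyte-like (21.2%, 12922) and B lineage-like cells (16.8%, 4036). These depths differ, and how much of the shares is background RNA was not tested. In PBS, endothelial-like cells had 17.1 (13.9 to 20.9) CPM and Schwann- or glia-like cells 8.45 (4.50 to 14.4). Fibroblast-like cells had 5.38 (3.60 to 7.73) CPM in PBS and 95.7 (87.7 to 104) in CFA, a ratio of 17.8 (12.2 to 26.8). It was 8.69 once the 5% of cells scored most like doublets were removed. Most of these UMIs, 468 of 524, were in Pi16 adventitial fibroblast-like cells, where 1 cell held 104 of them. The summed level of 6 monocyte markers in fibroblast-like cells was 28.0 CPM in PBS and 492 in CFA. Of these, Ccr2 had 0.186 and 6.58 CPM and Ly6c2 2.04 and 7.67, so most of the CFA sum lay in the other markers. Their part in the Cxcl2 value was not tested. After each cell was thinned to 1000 UMIs the share in CFA Pi16 adventitial cells was 4.85% (2.12 to 9.33%). In CFA Schwann- or glia-like cells it was 7.69% (5.17 to 10.9%). Median depths before thinning were 18121 and 3433 UMIs, so thinning took a larger part of the UMIs of the Pi16 adventitial cells. Without thinning, the CFA level of Schwann- or glia-like cells was 61.9 (51.1 to 74.4) CPM, below that of fibroblast-like cells. The source of these Cxcl2 UMIs was not tested.

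**Figure D1:**
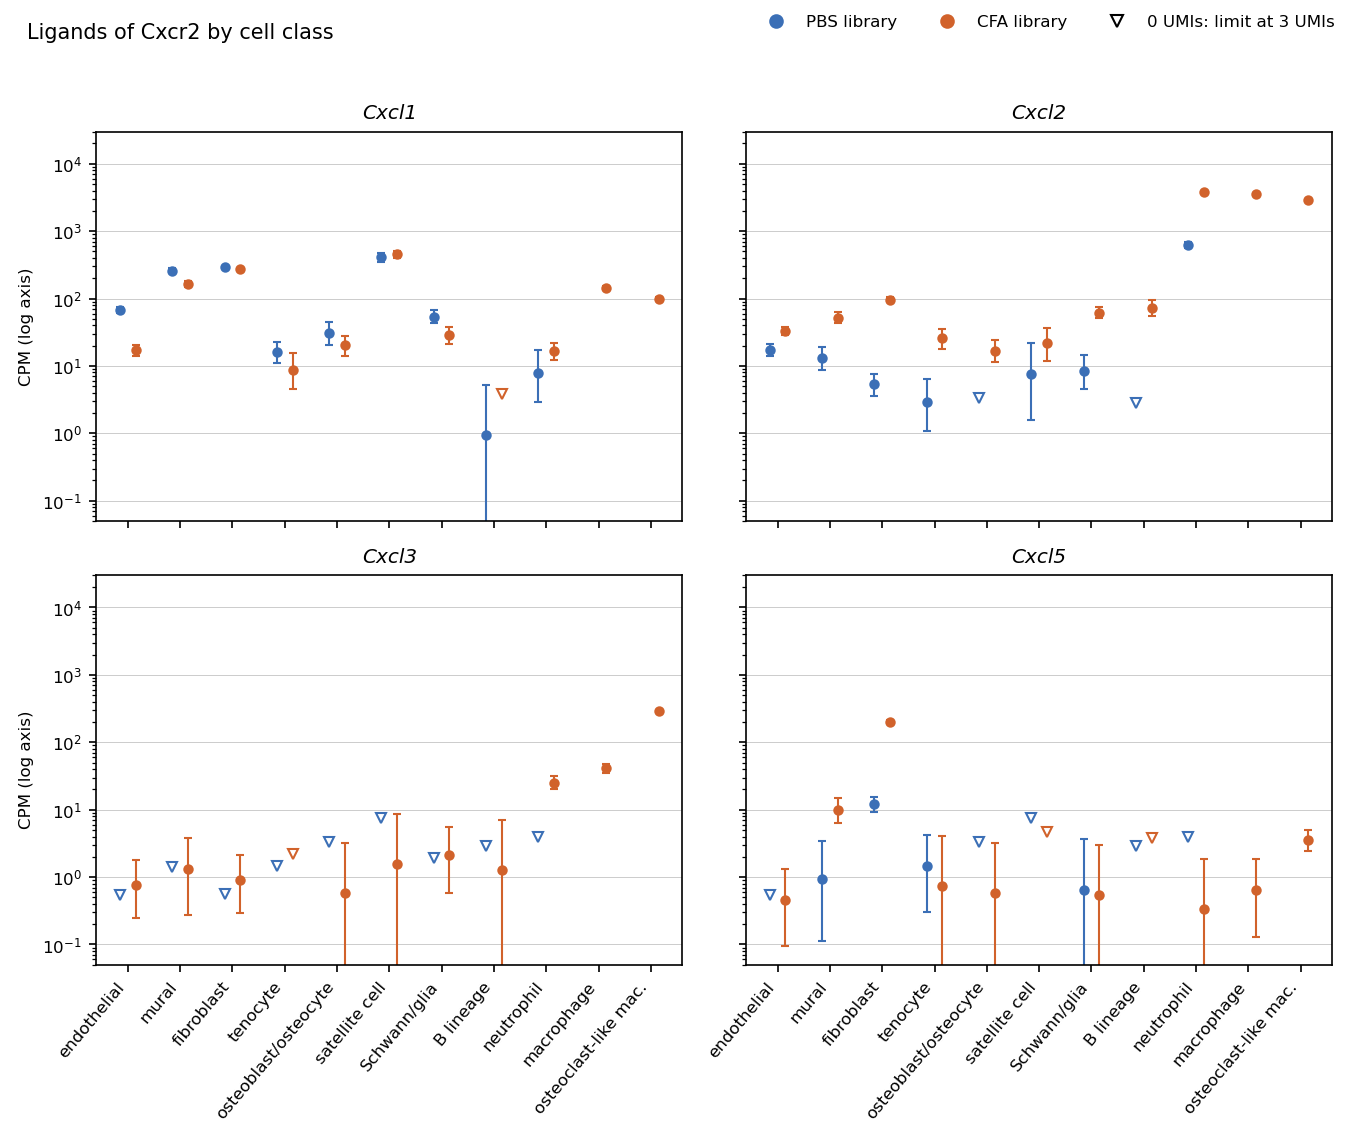
Levels of Cxcl1, Cxcl2, Cxcl3 and Cxcl5 in CPM (log axis) by cell class in the PBS (blue) and CFA (orange) library. Points are sums over the cells of a class with exact 95% Poisson intervals, open triangles mark the limit of 3 UMIs where none was counted, and classes under 50 cells in a library are left out. Cxcl2 and Cxcl3 are highest in the 3 myeloid classes of CFA, Cxcl5 in fibroblast-like cells, and Cxcl1 in satellite cell-like and fibroblast-like cells.

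Cxcl3 was close to absent from the PBS library, with 1 UMI in 2667 cells, and had 2922 UMIs in the CFA library. Of the CFA UMIs of Cxcl3, 88.6% were in osteoclast-like macrophages, which made up 6.43% of cells. These were deep cells, at a median of 31830 UMIs, and held 8931358 of the 44432717 UMIs of all genes in CFA. Their level was 289.8 (279 to 301) CPM and 46.9% (40.7 to 53.2%) of them held a UMI, while macrophage-like cells had 41.0 (35.5 to 47.2) and neutrophil-like cells 25.3 (19.9 to 31.7) CPM. The intervals of these 3 classes did not overlap. Neutrophil-like cells of PBS had 0 UMIs, and against the floor of 3 UMIs over that class the CFA level was at least 6.34-fold higher. Within the CFA neutrophil-like cells, 73 of 76 UMIs were in mature cells. In Schwann- or glia-like cells of CFA the share with a UMI was 0.796% (0.164 to 2.31%), at 4 UMIs, and every other named class of CFA had between 0 and 5 UMIs.

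Cxcl5, an ELR chemokine of stromal and epithelial cells, was a gene of a minority of fibroblast-like cells. Fibroblast-like cells had 65 UMIs in PBS, 12.1 (9.31 to 15.4) CPM, and 1104 in CFA, 202 (190.0 to 214) CPM, a ratio of 16.7 (13.02 to 21.8). The difference sat in Pi16 adventitial fibroblast-like cells, cells that surround vessels and carry the markers Pi16, Dpp4 and Cd55. They had 0 Cxcl5 UMIs in 134 PBS cells and 1042 in 165 CFA cells, 320.0 (301 to 340.1) CPM, at least 192-fold higher than the floor of 3 UMIs over the PBS cells. Sublining fibroblast-like cells had 40.7 (31.4 to 51.8) CPM in PBS and 48.9 (37.2 to 63.0) in CFA, and the interval of their ratio, 1.20 (0.830 to 1.74), held 1. In the CFA Pi16 adventitial cells 18.2% (12.6 to 24.9%) held a UMI, the cell with the most held 20.4% of them, and without it the level was 258 CPM. Mural-like cells had 2 Cxcl5 UMIs in PBS and 23 in CFA, 0.942 and 10.0 CPM, a ratio of 10.6 (2.63 to 93.0). Of the CFA UMIs 22 were in 2 cells of the Rgs5 and Vtn cluster. B lineage-like cells, which should lack Cxcl5, had 0 UMIs in both libraries, which allows a share of up to 1.44% in PBS and 2.01% in CFA.

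A single PBS cell decided the total of Cxcl5 in that library. It held 258 of the 376 PBS UMIs and lay in an unnamed cluster led by Car1 and Car2, carbonic anhydrase genes of red cell precursors. The ratio over all kept cells was 1.91 (1.70 to 2.15) with that cell. The fibroblast-like ratio does not include it. That ratio was 16.7 without the cell with the most Cxcl5 UMIs of each library, but 9.76 as a mean over cells and 7.25 after thinning to 1000 UMIs.

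Cxcl1, which stromal cells make on inflammatory or mechanical stimulation, had 111 (107 to 115) CPM over all kept PBS cells and 94.3 (91.5 to 97.2) over all kept CFA cells, 1.18-fold lower, and its classes differed in size and direction. Satellite cell-like cells, the muscle stem cells, had the highest level in both, 411 (349.9 to 479) in PBS and 453 (402 to 508) in CFA, with overlapping intervals. Fibroblast-like cells had 289 (275 to 304) and 275 (261 to 289), a ratio of 0.949 (0.884 to 1.02). That near-equality joined clusters with opposite differences and in a different mix. Pi16 adventitial cells held 1798288 of 5390502 fibroblast-like UMIs in PBS and 3255835 of 5474019 in CFA. The part of the mix in the class ratio was not tested. In Pi16 adventitial cells the level was 255 (232 to 279) in PBS and 380.2 (359 to 402) in CFA, a ratio of 1.49 (1.34 to 1.67). In sublining cells it was 434 (402 to 468) and 121 (102 to 142), a ratio of 0.279 (0.231 to 0.333), and in the third large fibroblast-like cluster, led by Angptl1 and Cilp, it was 199 and 94.8, a ratio of 0.476 (0.375 to 0.599). The difference between these ratios was not tested, since there is 1 library per condition.

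Endothelial-like cells had less Cxcl1 in CFA, 68.4 (61.8 to 75.6) against 17.0 (14.0 to 20.4) CPM, 4.04-fold lower, with a ratio of 0.248 (0.199 to 0.307). The direction was the same in each named vessel segment, with ratios of 0.180 (0.102 to 0.300) in Car4 capillary, 0.230 (0.155 to 0.338) in Plvap venular and 0.580 (0.367 to 0.907) in arterial cells. Mural-like cells, the pericytes and smooth muscle of vessels, had 260.1 (239 to 283) and 163 (147 to 180.2), with a ratio of 0.650 (0.548 to 0.769) in the Rgs5 and Vtn cluster and of 1.21 (0.937 to 1.56) in the Myh11 and Acta2 cluster. The first cluster had 89 PBS and 69 CFA cells and the second 98 and 155, so the class levels also differ in the mix of clusters. Schwann- or glia-like cells had 53.9 (43.0 to 66.9) and 28.5 (21.4 to 37.3), a ratio of 0.529 (0.368 to 0.756) that turned to 1.07 after thinning to 2000 UMIs. In CFA the myeloid classes added a source that PBS had in 26 cells only. Macrophage-like cells had 143 (132 to 154) and osteoclast-like macrophages 100 (93.5 to 107) CPM, together 16.1% and 21.3% of the CFA UMIs. B lineage-like cells, which should lack the gene, held a Cxcl1 UMI in 0.478% of PBS cells and in 0 of 149 CFA cells, which allows up to 2.01%.

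Cxcr2, the receptor of the 4 ligands, marked neutrophil-like cells in both libraries. Its level there was 144 (118 to 174) CPM in PBS and 237 (220.0 to 255) in CFA, and 47.9% (35.9 to 60.1%) and 56.6% (51.2 to 61.9%) of cells held a UMI. These cells held 75.0% of all PBS and 71.2% of all CFA Cxcr2 UMIs. In CFA, macrophage-like cells had 30.7 (25.9 to 36.1) and osteoclast-like macrophages 5.49 (4.06 to 7.25). Fibroblast-like cells had 1 UMI in each library, and the share in Schwann- or glia-like cells, which should lack it, was 0.325% (0.00822 to 1.80%) and 0.796% (0.164 to 2.31%). The fibroblast-like cells that held Cxcl1 and Cxcl5 thus held next to no Cxcr2.

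The neutrophil-like ratio of Cxcr2, 1.65 (1.35 to 2.04), mixed 2 stages that were present in different proportions. Immature cells, which carry the granule genes Ngp, Camp and Ltf, made up 46 of 71 PBS and 144 of 348 CFA cells, and mature cells 16 and 183. Cxcr2 was higher in mature than in immature cells of both libraries, 529 (390.3 to 702) against 94.2 (71.5 to 122) in PBS and 613 (556 to 674) against 124.9 (111 to 140.2) in CFA. Within a stage the ratios of CFA to PBS were 1.33 (0.997 to 1.79) in immature and 1.16 (0.857 to 1.59) in mature cells, and both intervals held 1, with under 50 PBS cells in each stage. Cxcl2 was higher in CFA within both stages. In immature cells it was 182 (149.7 to 219) in PBS and 1362 (1315 to 1411) in CFA, and in mature cells 3904 (3508 to 4333) and 12097 (11838 to 12360.5) CPM. The PBS value of Cxcl2 leaned on 1 mature cell with 224 of 468 UMIs, and the ratio over all neutrophil-like cells was 11.3 without the top cell of each library.

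The number of PBS neutrophil-like cells depended on the hemoglobin limit. Without that limit the class held 471 PBS and 366 CFA cells, and the ratios were 3.47 for Cxcr2, 10.6 for Cxcl2 and 3.46 for Cxcr4. All 3 stayed above 1. The total UMIs behind these levels include hemoglobin, and the barcodes let in were mostly of PBS. The part of this in the ratios was not tested.

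**Figure D2:**
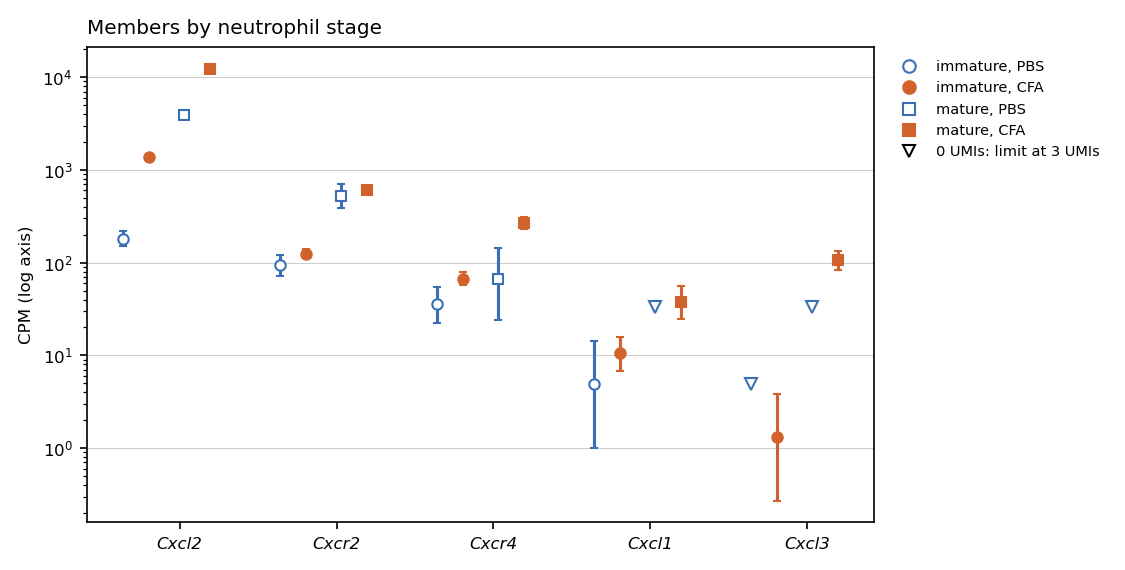
Levels of Cxcl2, Cxcr2, Cxcr4, Cxcl1 and Cxcl3 in CPM (log axis) in immature (circles) and mature (squares) neutrophil-like cells of the PBS (blue) and CFA (orange) library, with exact 95% Poisson intervals. Open symbols are groups under 50 cells, and open triangles mark the limit of 3 UMIs where none was counted. Cxcr2 is higher in mature cells of both libraries, while Cxcl2 differs between stages and between libraries.

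Cxcl12 had 14463 UMIs in PBS and 9060 in CFA cells, 532 (523 to 540.4) against 204 (199.7 to 208) CPM, 2.61-fold lower in CFA, and the classes that make it differed in opposite directions. In endothelial-like cells it was 1627 (1593 to 1660.3) in PBS and 642 (623 to 661) in CFA, 2.53-fold lower, with a ratio of 0.395 (0.380 to 0.409). In fibroblast-like cells it was 214 (201 to 226) and 570.3 (550.5 to 591), a ratio of 2.67 (2.50 to 2.86). Endothelial-like cells held 63.1% of the UMIs in PBS and 46.8% in CFA, fibroblast-like cells 7.96% and 34.5%. By cells, 91.9% (89.6 to 93.8%) of PBS and 76.2% (73.3 to 78.9%) of CFA endothelial-like cells held a UMI, at median depths of 5594 and 4720.0, and 66.4% and 40.1% did after thinning to 1000 UMIs. B lineage-like cells, which should lack Cxcl12, held one in 1.44% (0.297 to 4.14%) and 1.34% (0.163 to 4.76%), at 3734 and 4036 UMIs.

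The level was lower in CFA in every endothelial-like segment. Arterial cells, with the highest level, had 2482 (2380.5 to 2587) in PBS and 899 (843 to 959) in CFA, a ratio of 0.362 (0.335 to 0.391). Car4 capillary cells had 1429 (1375 to 1484) and 740.2 (695 to 787), a ratio of 0.518 (0.481 to 0.557), and Plvap venular cells 1022 (963 to 1084) and 468 (441 to 495), a ratio of 0.458 (0.421 to 0.497). The other 2 endothelial-like clusters, named to no segment, had ratios of 0.325 (0.299 to 0.353) and 0.477 (0.420 to 0.542). The order of the named segments, arterial above capillary above venular, was the same in both libraries, with no overlap of intervals.

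Osteoblast- or osteocyte-like cells had the highest Cxcl12 of any named class in PBS, 3061 (2948 to 3177) CPM, and 349 (322 to 378) in CFA, 8.77-fold lower. Different clusters hold this class in the 2 libraries. The cluster led by Bglap and Ifitm5, genes of mineralising cells, had 35 PBS and 28 CFA cells, with 5068 (4877 to 5264) and 872 (796 to 953) CPM, and 1 PBS cell held 578 of its 2652 UMIs. The cluster led by Plppr1 and Dok6 had 36 and 85 cells, with 323 (269 to 385) and 102 (84.1 to 122). The level was lower in CFA in both, with ratios of 0.172 (0.156 to 0.190) and 0.314 (0.242 to 0.407), each from under 50 PBS cells. Over the class the ratio was 0.114 (0.104 to 0.125), and 0.227 with no hemoglobin limit.

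Among the fibroblast-like cells, Cxcl12 was higher in CFA in Pi16 adventitial cells, 181 (162 to 202) against 622 (595 to 650.0) CPM with a ratio of 3.43 (3.05 to 3.87), and in sublining cells, 266 (242 to 293) against 731 (683 to 780.4) with a ratio of 2.74 (2.44 to 3.09). In the Angptl1 and Cilp cluster it was 207 and 221, and 1 CFA cell held 47.7% of the UMIs. The share of fibroblast-like cells with a UMI was nearly the same, 54.1% and 55.9%, and after thinning 16.01% (12.8 to 19.6%) and 23.8% (19.6 to 28.5%). Mural-like cells had 381 (355 to 408) and 232 (213 to 253), with a ratio of 0.410 (0.353 to 0.476) in the Myh11 and Acta2 cluster and of 1.14 (0.966 to 1.35) in the Rgs5 and Vtn cluster. Tenocyte-like cells, of tendon and ligament, had 86.2 (74.0 to 99.9) and 20.6 (13.7 to 29.7), and 1 PBS cell held 66 of 177 UMIs. Their ratio was 0.238 (0.154 to 0.357), 0.463 without the highest doublet scores and 0.798 without integration, and the cause was not tested. Neutrophil-like cells had 66.5 (49.4 to 87.7) and 4.99 (2.80 to 8.24), a ratio of 0.0750 (0.0391 to 0.136) that was 0.480 without the highest doublet scores and 0.0287 after thinning to 1000 UMIs. The summed level of 8 fibroblast markers in those cells moved the same way, 2828 in PBS and 372 CPM in CFA, and its part in the neutrophil-like value was not tested.

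**Figure D3:**
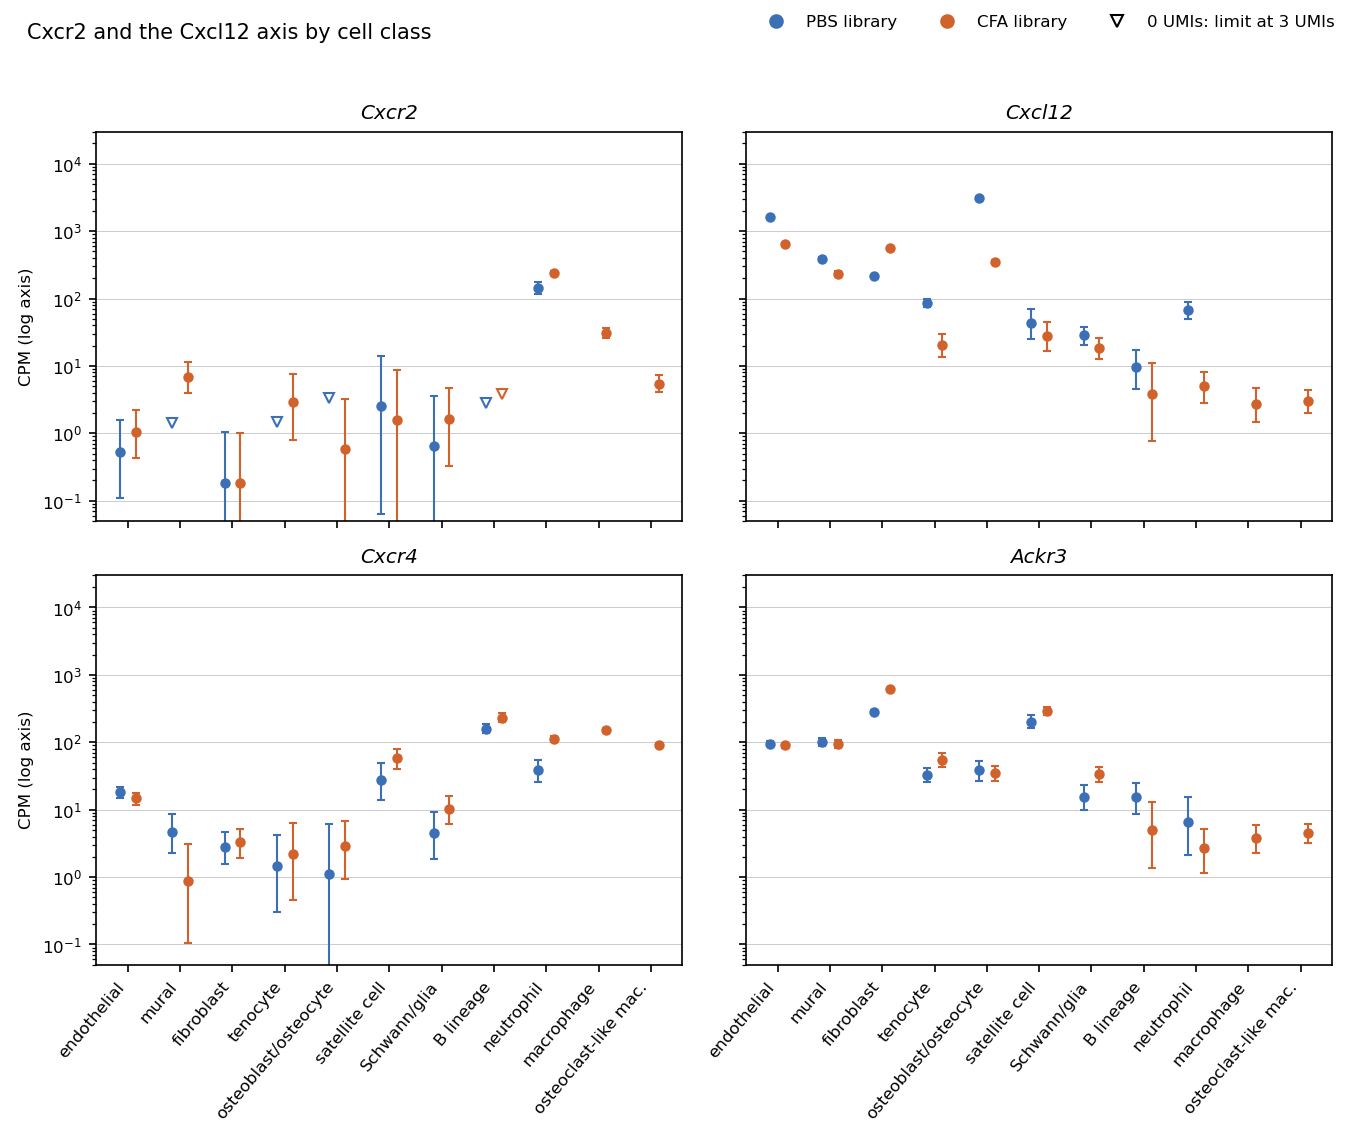
Levels of Cxcr2, Cxcl12, Cxcr4 and Ackr3 in CPM (log axis) by cell class in the PBS (blue) and CFA (orange) library, with exact 95% Poisson intervals and open triangles at the limit of 3 UMIs where none was counted. Cxcl12 is lower in CFA in endothelial-like and osteoblast- or osteocyte-like cells and higher in fibroblast-like cells, Cxcr4 is highest in B lineage-like cells, and Ackr3 in fibroblast-like cells.

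Cxcr4, the signalling receptor of Cxcl12, was highest in blood cells in both libraries. B lineage-like cells had the highest level of the classes with at least 50 cells, 159.5 (136 to 186) in PBS and 233 (200.3 to 269) in CFA, a ratio of 1.46 (1.18 to 1.81). Later B cells, with Ms4a1 and Ighd, had 225 (184 to 274) and 362 (296 to 438), above the early B cells with Vpreb1 and Igll1 at 65.5 (33.8 to 114) and 140.4 (91.7 to 206). Neutrophil-like cells had 38.6 (25.9 to 55.4) in PBS and 113 (101 to 125.2) in CFA, a ratio of 2.92 (1.99 to 4.42). Within stages it was 35.7 (22.4 to 54.1) and 67.3 (57.0 to 78.8) in immature and 66.2 (24.3 to 144) and 267 (229.7 to 309) in mature cells, higher in CFA in both, although the mature PBS value rests on 6 UMIs. The size of the neutrophil-like ratio varied between alternatives, from 1.75 with cells of up to 20% mitochondrial UMIs to 11.4 after thinning to 1000 UMIs, and the cause was not tested.

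In CFA, macrophage-like cells had 152 (141 to 163) and osteoclast-like macrophages 92.7 (86.5 to 99.2) CPM of Cxcr4, and together with neutrophil-like cells they held 27.3%, 31.5% and 12.9% of the CFA UMIs. Endothelial-like cells, where Cxcr4 guides vessel growth, had 18.0 (14.7 to 21.9) and 14.7 (11.9 to 17.9), with a ratio of 0.816 (0.611 to 1.09) whose interval held 1. Satellite cell-like cells had 27.9 (13.9 to 49.9) and 57.7 (40.7 to 79.6). Mural-like cells had 10 UMIs in PBS and 2 in CFA, a ratio of 0.185 (0.0197 to 0.867). Schwann- or glia-like cells, taken here as a class without Cxcr4, held a UMI in 1.30% (0.355 to 3.29%) and 3.71% (2.04 to 6.15%) of cells. The shares in fibroblast-like (2.69% and 2.67%) and tenocyte-like cells (1.97% and 2.70%) were of that size. Whether the shares of these classes are background RNA was not tested.

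Ackr3, the receptor that removes Cxcl12, was highest in fibroblast-like cells among classes of at least 50 cells. Their level was 282 (268 to 297) in PBS and 615 (595 to 636) in CFA, a ratio of 2.18 (2.05 to 2.32), and they held 49.1% and 64.2% of all its UMIs. The direction was the same in the 3 large fibroblast-like clusters. Pi16 adventitial cells had 433 (403 to 464) and 783 (752 to 814) CPM, a ratio of 1.81 (1.67 to 1.96). Sublining cells had 128 (111 to 146) and 292 (263 to 325), a ratio of 2.29 (1.92 to 2.74), and the Angptl1 and Cilp cluster had 273 and 462, a ratio of 1.69 (1.49 to 1.92). In Pi16 adventitial cells 83.6% (76.2 to 89.4%) of PBS and 96.4% (92.3 to 98.7%) of CFA cells held a UMI, and 32.8% (24.97 to 41.5%) and 47.3% (39.5 to 55.2%) did after thinning. In B lineage-like cells, taken here as a class without Ackr3, the share was 4.78% (2.32 to 8.62%) and 1.34% (0.163 to 4.76%). Whether these UMIs are background RNA was not tested.

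Endothelial-like cells, whose Cxcl12 was lower in CFA, had nearly the same Ackr3 in both libraries, 95.9 (88.0 to 104) and 90.1 (83.0 to 97.6) CPM, and the interval of their ratio, 0.9396 (0.835 to 1.06), held 1. Mural-like cells had 103 (89.5 to 117) and 94.5 (82.3 to 108), with overlapping intervals. Satellite cell-like cells had 203 (161 to 252) and 293 (253 to 338), a ratio of 1.45 (1.11 to 1.90), and Schwann- or glia-like cells 15.6 (9.99 to 23.2) and 33.9 (26.1 to 43.4). Tenocyte-like cells had 33.1 (25.7 to 41.99) and 55.1 (43.3 to 69.0), a ratio of 1.66 (1.18 to 2.34) that turned to 0.364 without integration. Among classes of at least 50 cells, fibroblast-like cells stood first in both libraries and satellite cell-like cells second, with no overlap of intervals, while mural-like and endothelial-like cells followed with overlapping ones. Lymphatic-like cells, 18 in PBS and 12 in CFA, had 352 (284 to 431) and 332 (252 to 430.3).

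**Figure D4:**
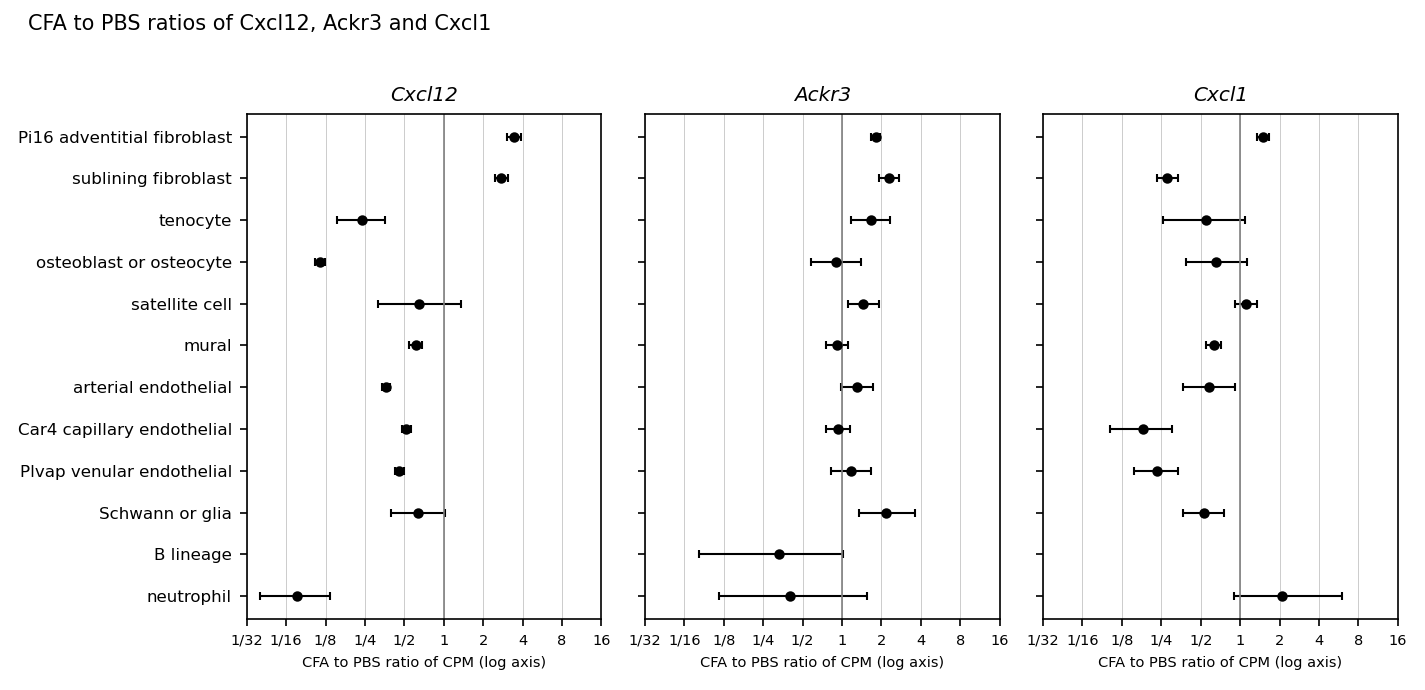
CFA to PBS ratio of the level (log axis) of Cxcl12, Ackr3 and Cxcl1 in fibroblast-like and endothelial-like subtypes and other classes, with 95% intervals that cover counting error only. A point is drawn where both libraries had at least 50 cells and over 3 UMIs, and the vertical line marks equal levels. Cxcl12 lies right of the line in both fibroblast-like subtypes and left of it in the 3 endothelial-like segments, Ackr3 lies right of it in the fibroblast-like subtypes, and Cxcl1 lies on opposite sides in Pi16 adventitial and sublining cells.

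The members were set beside all genes by counting ratios past 2-fold among genes with at least 20 UMIs over both libraries. In fibroblast-like cells 4 of 6 members tested were higher in CFA (Cxcl2, Cxcl5, Cxcl12 and Ackr3) and none lower, where 7.45% of 13072 genes were higher and 5.55% lower. Of these, Cxcl2 carries the limits given above, on doublet scores, on a single high cell and on monocyte markers. Its share after thinning was compared between cells of unlike depth. In endothelial-like cells none of 5 was higher and 2 were lower (Cxcl1 and Cxcl12), where 4.86% of 12561 genes were higher and 5.76% lower, and Cxcl2, at 1.94, lay just inside the limit. In neutrophil-like cells 4 of 6 were higher (Cxcl1, Cxcl2, Cxcl3 and Cxcr4) and Cxcl12 was lower, where 9.36% of 9252 genes were higher and 13.5% lower. Mature cells held 90672 of 751320 neutrophil-like UMIs in PBS and 685444 of 3003570 in CFA. The part of this stage mix in the neutrophil-like counts was not tested. The other members did not reach 20 UMIs, namely Cxcl3 and Cxcr2 in fibroblast-like, Cxcl3, Cxcl5 and Cxcr2 in endothelial-like and Cxcl5 and Ackr3 in neutrophil-like cells. Cxcl3 in neutrophil-like cells reached them through the CFA library alone, and the ratio of Cxcl1 there, 2.08 (0.893 to 5.95), rests on 6 PBS UMIs and its interval held 1. The median log2 ratio of all genes tested was -0.12 in neutrophil-like and -0.02 in fibroblast-like cells, and the median ratio was 0.999 in endothelial-like cells. Over the members tested the median ratio was 2.43, 0.816 and 2.50 in fibroblast-like, endothelial-like and neutrophil-like cells.

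Genes that act with these chemokines were followed in 5 lists. Beside them, 7.45% of all genes tested were past 2-fold higher and 5.55% lower in fibroblast-like cells. These shares were 4.86% and 5.76% in endothelial-like and 9.36% and 13.5% in neutrophil-like cells. A single gene of 13 or more tested lies near or below such shares and is not read as a result about its list. The 2 libraries also differed in the mix of neutrophil stages, as given above. The part of that mix in the neutrophil-like counts of the 5 lists was not tested. Of 16 regulators of ELR chemokine transcripts on the NF-kB and IL-17 pathways, 3 of 16 tested passed 2-fold upwards in fibroblast-like cells (Tnfaip3, Il17ra and Il1r1), 1 of 16 in endothelial-like cells (Il1r1) and 5 of 14 in neutrophil-like cells (Nfkbia, Nfkb1, Tnfaip3, Zfp36 and Cebpb), and Il1r1 was lower in the last. Fibroblast markers were also lower in CFA in neutrophil-like cells, as given above, and their part in the Il1r1 value was not tested. Tnfaip3, an NF-kB target that damps the pathway, had 33.3 CPM in PBS and 164 in CFA neutrophil-like cells, a ratio of 4.94 (3.31 to 7.71). Il1r1, the interleukin-1 receptor, had 44.9 and 147 in endothelial-like cells, a ratio of 3.27 (2.85 to 3.78). Nfkb1 was among the lowest of the eligible list genes in fibroblast-like cells, 349.7 and 264, a ratio of 0.755 (0.705 to 0.809). The median ratio of the list was 1.15 in fibroblast-like, 1.06 in endothelial-like and 1.72 in neutrophil-like cells.

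Of 8 regulators and partners of Cxcl12-making stroma, 2 were higher (Hif1a and Il7) and 2 lower (Kitl and Bmp4) in fibroblast-like cells, and 1 of 7 tested was higher (Angpt1) in endothelial-like cells. Kitl, the stem cell factor that Cxcl12-rich marrow stroma also makes, had 111 CPM in PBS and 32.2 in CFA in fibroblast-like cells, a ratio of 0.290 (0.244 to 0.343), while Cxcl12 was higher there. Hif1a, the oxygen-sensing factor, had 102 and 249, a ratio of 2.45 (2.21 to 2.71). In endothelial-like cells Kitl had 1373 and 1184, a ratio of 0.862 (0.835 to 0.890). In neutrophil-like cells 3 of the 8 were tested, Hif1a being higher and Ebf3 and Kitl lower. In those cells 8 fibroblast markers summed to 2828 CPM in PBS and 372 in CFA, and 8 mural markers to 1762 and 39.3. The part of such RNA in these values and in the list median was not tested. The medians of the list were 1.02 in fibroblast-like, 1.45 in endothelial-like and 0.177 in neutrophil-like cells.

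Among 10 other ligands and receptors of the 2 axes, 5 were tested in fibroblast-like cells and 2 were higher, Cxcl14 and Cd74. Cxcl14, a chemokine of resting stroma, had 114 and 274 CPM, a ratio of 2.39 (2.18 to 2.63). Of 5 tested in endothelial-like cells 2 were higher, Ackr1, the venular chemokine carrier, and Cd74, the MHC class II chaperone that also binds the cytokine Mif. Cd74 had 44.6 and 695 there, a ratio of 15.6 (13.7 to 17.8), and 93.2 and 777 in neutrophil-like cells, a ratio of 8.34 (6.57 to 10.7). There Pf4 and Dpp4 were lower, of 4 tested. In neutrophil-like cells 8 macrophage markers summed to 121 CPM in PBS and 553 in CFA, and 8 fibroblast markers to 2828 and 372. Their part in the neutrophil-like values was not tested. The medians were 1.46, 0.927 and 0.719 in the 3 classes in the same order.

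Of 15 genes that carry signals behind Cxcr2 and Cxcr4, most stayed between the limits, 12 of 13 tested in fibroblast-like, 11 of 13 in endothelial-like and 14 of 15 in neutrophil-like cells. The exceptions, all higher in CFA, were Dock2 in fibroblast-like, Fgr and Ptk2b in endothelial-like and Fgr in neutrophil-like cells. Gnai2, a G protein subunit that both receptors use, had 1067 and 862 in endothelial-like cells, a ratio of 0.807 (0.778 to 0.837), and Grk2, the kinase that desensitises them, 185 and 163 in neutrophil-like cells, a ratio of 0.882 (0.729 to 1.07). The medians were 0.967, 1.23 and 1.04 in the same order. Of 11 genes of neutrophil release and adhesion, 5 of 10 tested were higher in neutrophil-like cells (Csf3r, Selplg, Itga4, Fpr1 and C5ar1), and Ltb4r1 had 232 and 216 CPM, a ratio of 0.934 (0.789 to 1.11). In that list 4 of 6 tested were higher in fibroblast-like cells (Csf3r, Itgam, Itgb2 and C5ar1) and 4 of 7 in endothelial-like cells (Csf3, Csf3r, Itgam and Itgb2). The medians were 4.06, 5.10 and 1.86. Apart from Csf3 these are leukocyte genes. Other leukocyte markers moved with them, the summed level of 8 macrophage markers being 7.61 in PBS and 50.2 CPM in CFA fibroblast-like cells and 30.3 and 44.7 in endothelial-like cells, while the 9 neutrophil markers summed to 539 and 254 and to 136 and 301. Their part in these counts was not tested, nor was that of the stage mix in the neutrophil-like count.

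Single cells that made the ligands were compared within 1 library after thinning to 1000 UMIs. Of 165 CFA Pi16 adventitial cells, 12 still held a Cxcl5 UMI. Cxcl1 was found in 66.7% (34.9 to 90.1%) of these and in 15.7% (10.3 to 22.4%) of the others. Cxcl12 was found in 66.7% against 26.8% (19.97 to 34.5%). Ackr3 went the other way, in 1 of the 12 cells, 8.33% (0.211 to 38.5%), against 50.3% (42.1 to 58.5%). Cxcl12 and Ackr3 themselves were not apart in these cells, Ackr3 being found in 46.9% of cells with and 47.4% of cells without a Cxcl12 UMI. In mature CFA neutrophil-like cells Cxcr4 was found in 17.1% (9.18 to 28.0%) of 70 cells with and 23.1% (15.6 to 32.2%) of cells without a Cxcr2 UMI. Cells of 1 library share their source, so these shares describe that library.

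**Figure D5:**
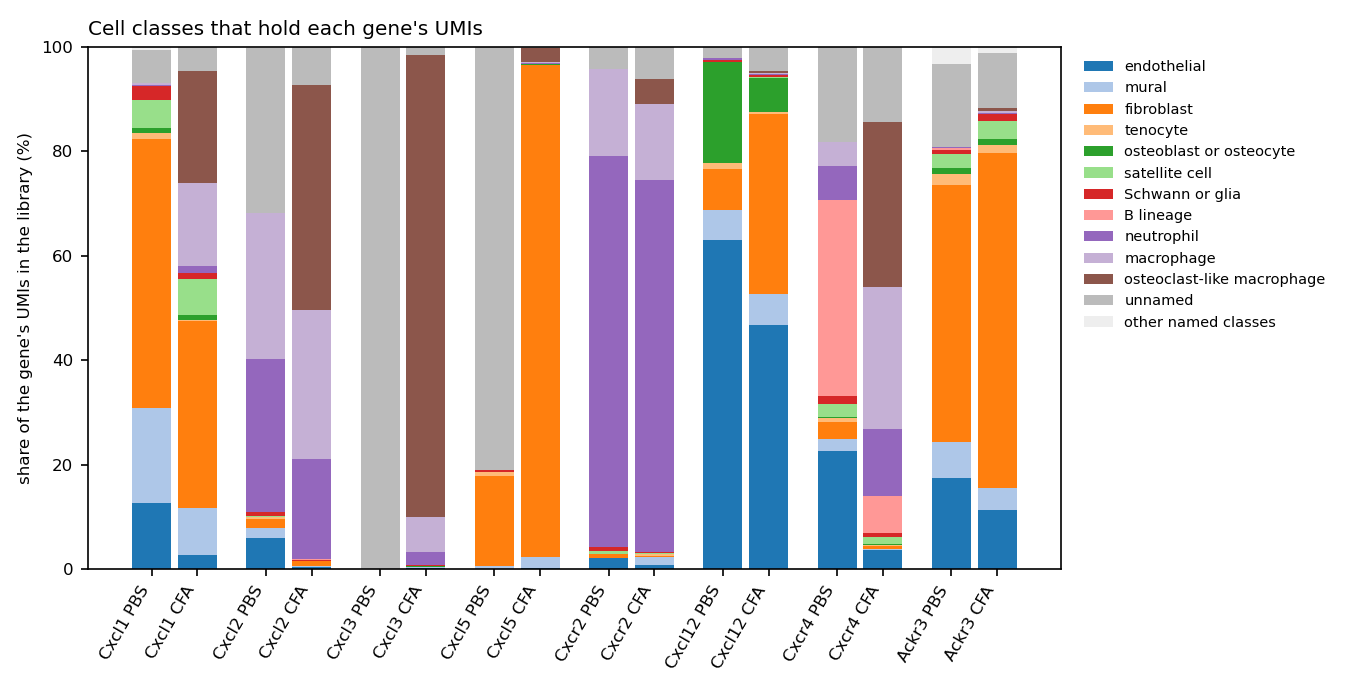
Share of each gene's UMIs (percent of the library's total for that gene) held by each cell class, with 1 bar per gene and library. Cxcl12 passes from mainly endothelial-like in PBS to endothelial-like and fibroblast-like in CFA, Cxcl3 in CFA lies in osteoclast-like macrophages, Cxcr2 lies in neutrophil-like cells in both, and the Cxcl3 bar of PBS stands for 1 UMI.

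The genes with the patterns most like each member were taken from 14049 genes by the correlation of log2 levels (with 10 CPM added) over 20 points, each a class in a library with at least 50 cells. Classes of a library share its depth and background RNA, so these correlations are descriptions. Cxcl2 was most like Clec4d (r = 0.984), Il1b (r = 0.980) and Acod1 (r = 0.979), of which the first 2 were also markers of the mature neutrophil stage. Cxcr2 was most like Mrgpra2a (r = 0.988), Siglece (r = 0.987) and Klra17 (r = 0.986). Cxcl1 was most like Ifrd1 (r = 0.879), Atf3 (r = 0.850) and 1200007C13Rik (r = 0.847). Cxcl12 was most like Polg2 (r = 0.917), Ebf3 (r = 0.911), a transcription factor of Cxcl12-rich marrow stroma that stood in the list above, and Nhsl1 (r = 0.902). Cxcr4 was most like Unc93b1 (r = 0.955), Tbk1 (r = 0.931) and Rel (r = 0.927), and Ackr3 like Fhl1 (r = 0.923), Serpinb6a (r = 0.903) and Arhgap21 (r = 0.901). For Cxcl3 the 3 were Ankrd66 (r = 0.988), Il23r (r = 0.984) and Gm6209 (r = 0.978), and for Cxcl5 Krt25 (r = 0.970), D130079A08Rik (r = 0.961) and Gm32647 (r = 0.9501), patterns that rest on 1 high class of the CFA library.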

How the data were processed

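The authors aligned the reads of both 10x Genomics libraries to GRCm38 (mm10) with Cell Ranger 7.0.1, filtered the barcodes, and deposited raw UMI counts per gene and barcode. The annotation release is not given in the sources used here. The labels give kit chemistry and digestion conditions that differ from the methods. The groups came from the treatment labels. The deposited tables held 7671 PBS and 5709 CFA barcodes with 51146169 and 53517206 UMIs, of which 27201994 and 44432717 were in the cells kept.

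The limits on genes and mitochondrial UMIs were those of the methods, and the limit on hemoglobin UMIs was added here. Cells were normalised with SCTransform and integrated on 3000 genes in R 4.3.3 with sctransform 0.4.2 and Seurat 5.3.0. They were clustered on 200 principal components at a resolution of 1.5, as in the methods, after the members and 5 pathway lists were removed from the clustering genes, which left 2960. Of 36 clusters, 28 were named. A marker counted as detected with at least 25% of cells and a 2-fold level against the other cells of each library, with 10 CPM added, as a geometric mean over libraries. Clusters with under 3 detected markers, led by another class or of low depth stayed unnamed (365 PBS and 684 CFA cells). Levels, exact intervals (Poisson for levels, Clopper-Pearson for shares, conditional binomial for ratios, all 95%) and correlations were computed with scipy 1.17.1, numpy 2.4.6 and pandas 2.3.3 under Python 3.11.15, and matplotlib 3.10.9 drew the figures. A count of 0 was given a limit of 3 UMIs. UMIs count molecules, and cells of 1 library are no replicates, so the intervals cover counting error only. Scrublet (scanpy 1.11.5) marked 21 PBS and 2 CFA cells by its own threshold, too few to have worked on the CFA library, so an alternative dropped the 5% of cells that scored highest. Thinning to 1000 UMIs left out 55 PBS and 129 CFA cells. The steps were tested on simulated data.

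The rule for naming took all members in every named class or subtype of at least 50 cells, which the figures plot by class, and of the lists the 2 highest and 2 lowest ratios per class with 10 or more UMIs in both libraries and 100 CPM in 1 of them. Macrophage-like ratios are not reported, with 26 PBS cells. Clusters and stages below 50 cells named in the text were chosen after their values were seen. The members, lists and markers were chosen with earlier results of these data known. Positions are from GENCODE M21 and promoters from RefSeq.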

Additional observations from a re-analysis of the deposited data

Results flagged for a closer look

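The CFA to PBS ratio of Cxcl12 lay on opposite sides of 1 in different classes. It was 2.67 in fibroblast-like cells and 0.395 in endothelial-like, 0.114 in osteoblast- or osteocyte-like, 0.238 in tenocyte-like and 0.0750 in neutrophil-like cells. Under the alternatives these ranged over 2.20 to 2.81, 0.360 to 0.419, 0.105 to 0.227, 0.228 to 0.798 and 0.0287 to 0.480, and the causes were not tested. Cxcl1 likewise had ratios of 1.49 in Pi16 adventitial and 0.279 in sublining fibroblast-like cells. With 1 library per condition these differences between classes were not tested.

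Barcodes over the hemoglobin limit, used only where that limit was lifted, held Cxcl2, Cxcr2 and Cxcr4 at a higher level in CFA than in PBS. The level was 30.0 CPM in PBS and 187.5 in CFA for Cxcl2, 1.96 and 6.86 for Cxcr2, and 21.3 and 34.6 for Cxcr4, from 3178 PBS and 339 CFA barcodes. The total UMIs behind these levels include hemoglobin, which was not taken out in either library. Another 4 members were lower in CFA there, with 42.3 and 8.89 for Cxcl1, 21.04 and 1.02 for Cxcl5, 196 and 28.5 for Cxcl12 and 49.8 and 28.7 for Ackr3. Cxcl3 had 9 UMIs in each library.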

How the results depend on the processing

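Of the 10 ratios the comparisons rest on, 8 lay on the same side of 1 under all of their alternatives. Cxcl1 in fibroblast-like cells (0.668 to 1.02) and Ackr3 in endothelial-like cells (0.884 to 1.05), whose intervals held 1 in the first place, did not. Values outside the 95% counting interval of the reported ratio follow, and the cause was not tested. Cxcl12 in endothelial-like cells was 0.419 after log-normalization with no integration and 0.360 thinned to 1000 UMIs, and Cxcr4 there was 0.393 thinned to 2000 UMIs. In fibroblast-like cells, as a mean over cells, thinned to 1000 and thinned to 2000 UMIs, Cxcl1 was 0.772, 0.818 and 0.668, Cxcl5 9.76, 7.25 and 8.33, and Cxcl12 2.22, 2.20 and 2.31. Cxcl1 was 1.02 with at least 1000 genes per cell, and Ackr3 was 1.94 thinned to 2000 UMIs.

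In neutrophil-like cells Cxcl2 was 10.6 with no hemoglobin limit, 5.06 with at least 1000 genes, 5.56 without the highest doublet scores, 7.58 at resolution 0.8, 7.49 with 50 principal components, 4.89 without integration, 7.29 as a mean over cells, and 6.78 and 7.84 after thinning. It was 11.3 without the top cell of each library and 7.49 in the immature cluster, alternatives added after seeing the data. Cxcr2 was 3.47 with no hemoglobin limit and 1.33 in the immature cluster. Cxcr4 was 1.75 with up to 20% mitochondrial UMIs, 5.73 as a mean over cells, 11.4 and 6.39 after thinning, and 1.88 in the immature cluster. The count of members past 2-fold higher in endothelial-like cells was 1 in place of 0 under 8 alternatives. In neutrophil-like cells the count higher was 2 with up to 20% mitochondrial UMIs and thinned to 1000 UMIs, and the count lower was 2 with no hemoglobin limit and 0 after either thinning. Among the other ratios whose interval did not hold 1, 2 alternative values turned to the other side of 1, Cxcl1 in Schwann- or glia-like cells thinned to 2000 UMIs (1.07) and Ackr3 in tenocyte-like cells without integration (0.364). Ratios whose interval held 1 also changed sides, among them Cxcl12 in satellite cell-like (0.652 to 3.77), Ackr3 in osteoblast- or osteocyte-like (0.783 to 2.49) and Cxcr4 in fibroblast-like cells (0.561 to 1.61). No paired analysis was possible because each condition has 1 library. Leaving out a replicate was not possible for the same reason. At these depths, members with under 10 UMIs in a class have counting intervals of several-fold.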
